A study of Homo sapiens with 29 samples.

Results

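The transcriptional response to erlotinib was read in PC9 cells, an EGFR-mutant lung adenocarcinoma line, by comparing treated with untreated cells of the same line. The comparison took the 10 libraries labelled untreated and the 10 labelled erlotinib, 20 of the 29 libraries of the series, and paired them within each of 10 lines. The lines were parental PC9 (PAR), an AXL knockout made from it with CRISPR-Cas9 (KO), and knockout cells given an AXL transgene, which was the wild type in WT, without kinase activity in KD, and changed at 1 tyrosine in Y634F, Y643F, Y698F, Y726F, Y750F and Y821F. The 8 add-back lines were made by lentiviral transduction and sorted on GFP, so they are sorted populations that share the knockout background, and in the study only a part of the transduced cells carried AXL at the surface. Treated cells (E) received 1 μM erlotinib for 24 h, and untreated cells received no drug. Each line and treatment had 1 library, so the 10 lines served as the replicates of the drug comparison although they carry different receptors, and nothing in the labels gives separate cultures of 1 line. The p-values therefore rest on the spread of the response between lines, which here also holds the variation of single cultures and libraries. Since 9 of the lines share the knockout background, the lines are not fully independent replicates.

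Erlotinib occupies the ATP site of the EGFR kinase. In EGFR-mutant cells the receptor drives the RAS-RAF-MEK-ERK cascade and the PI3K-AKT cascade. ERK switches on its own feedback genes, the ETS factors ETV4 and ETV5, FOSL1 and cyclin D1, which opens the RB gate and releases E2F to transcribe replication genes, whereas AKT holds FOXO factors out of the nucleus and keeps their targets, many of them growth-restraining or pro-apoptotic, at a low level. AXL is a receptor tyrosine kinase of the TAM family known for its part in resistance to EGFR inhibitors.

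Expression was deposited as TPM per transcript and was summed per gene here, and the 9085 genes whose mean TPM reached 10 across the 29 libraries were compared on the log2(TPM + 1) scale, on which changes of low genes are understated. Limma with the line as a block called 7175 genes (adjusted p under 0.05 by Benjamini-Hochberg), which is 79.0% of those tested, with 3309 higher (36.4%) and 3866 lower (42.6%) with E. This is the background against which every gene list below has to be read, since most genes of any list are called. The filter bears on these counts, since 771 of the tested genes had a mean under 10 TPM in 1 group or both, and a gene that passed through its higher group alone was bound to differ. Counts and medians over the tested members of a list are therefore descriptions, and for lists with many such members the listed genes under the filter are given too. The median size of a called change was 0.47. Changes of more than 1 were rarer, with 514 called genes higher (5.66%) and 628 lower (6.91%), and 2281 genes rose and 2948 fell in each of the 10 lines. The TPM ranges of the 10 untreated and the 10 treated libraries did not overlap for 3312 genes (36.5%). The 6 epithelial markers looked at (KRT7, KRT8, KRT18, KRT19, EPCAM and CDH1) were at 10 TPM or more in all 20 libraries and summed to between 8155 and 11180 TPM, and those of other cell types were lower. Fibroblast markers summed to between 16.2 and 36.6 TPM untreated and to between 37.9 and 62.6 TPM with E, most of it COL1A1, with COL1A2, COL3A1 and LUM under 1 TPM throughout. Leukocyte markers summed to 34.5 to 68.9 TPM and 28.9 to 46.0 TPM, most of it CD68, with CD3E and CD14 under 1 TPM, and endothelial markers to 6.08 to 10.5 TPM and 2.40 to 7.10 TPM, with KDR, VWF, TEK and CLDN5 under 1 TPM.

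In PCA the drug was the first axis. PC1 held 75.6% of the variance, and untreated libraries scored between -35.8 and -27.6 whereas treated libraries scored between 28.4 and 37.6. PC2 held 6.9% and set PAR, at 30 untreated and 29.6 with E, apart from the other 18 libraries, which lay between -6.71 and 0.72. Summed over genes, the treatment took 75.1% of the squared deviations, the line 16.3% and the remainder 8.52%. The median SD of a gene between lines was 0.15 both untreated and with E.

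**Figure D1:**
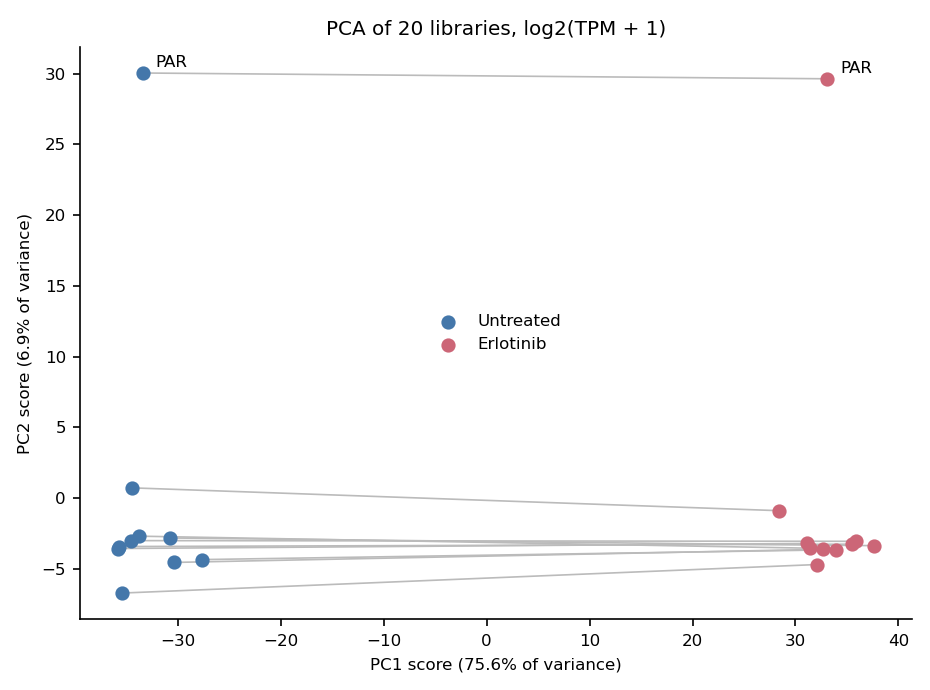
Scores of the 20 libraries on the first 2 principal components of log2(TPM + 1), with grey lines joining the untreated (blue) and erlotinib (red) library of a line. All untreated libraries lie at -27.6 or below on PC1 and all treated ones at 28.4 or above, while PC2 separates PAR, near 30, from the other lines.

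The targeted gene of the lines, AXL, was examined first. KO had the lowest AXL level of the lines, 92.4 TPM untreated and 79.3 TPM with E, and PAR had 351 and 245 TPM. In the 8 transduced lines AXL ran from 217 TPM (WT) to 428 TPM (Y726F) untreated and from 379 TPM (KD) to 852 TPM (Y750F) with E. AXL thus fell with E in the 2 lines without a transgene and rose in the 8 transduced lines, where transgene reads that match the AXL reference count as AXL. Over the 10 lines the log2 change was 0.63 (standard error 0.14, limma adjusted p = 0.00076), with the lowest change in PAR at -0.51 and the highest in Y750F at 1.01, and it missed the threshold at an adjusted p of 0.0936 in limma without the line as a block. The KO transcript was still present, and RNA levels do not show whether the edit removed the protein.

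The genes that rose most belonged to several programs. BMF, a BH3-only protein that binds and neutralizes the survival members of the BCL2 family, ran from 2.88 to 8.48 TPM untreated (median 3.94) and from 71.6 to 95.8 TPM with E (median 85.3). Its log2 change of 3.99 (standard error 0.10, limma adjusted p = 1.3e-13) was the largest among genes that moved the same way in all 10 lines. Every treated library was far above every untreated one. PIK3IP1, a negative regulator of PI3K, rose from a median of 2.57 TPM to 39.9 TPM, and CDKN2B, the CDK4/6 inhibitor p15, from 13.9 TPM to 149 TPM. The other genes among the 12 largest rises were NKAIN4 (3.98), HEG1 (3.82), TUBA1A (3.43), ALPP (3.37), KRT17 (3.37), FILIP1L (3.33), the autophagy gene ATG9B (3.23), TAGLN (3.21) and OLR1 (3.19), given as log2 changes. In each of the 12 the treated and untreated ranges did not overlap. BMF, NKAIN4, PIK3IP1 and ATG9B were under 10 TPM in every untreated library, so they passed the filter through the treated libraries and were bound to differ. TUBA1A, with an untreated mean of 9.23 TPM, likewise passed through the treated libraries. TUBA1A, ALPP and KRT17 have near-identical paralogs, and how the authors' quantification divided reads between copies is not known.

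Among the 12 largest falls, transcription factors and ERK outputs stood beside surface and metabolic genes. SLCO4A1, an organic anion transporter, ran from 48.5 to 64.6 TPM untreated and from 2.38 to 4.18 TPM with E, a log2 change of -3.75 (standard error 0.07, limma adjusted p = 1.5e-14). FOSL1, the AP-1 subunit FRA-1, ran from 196 to 249 TPM untreated and from 9.92 to 23.9 TPM with E, and TGM2, a transglutaminase that cross-links matrix proteins, had a median of 709 TPM untreated and 66.8 TPM with E. These falls left no overlap between the groups, but SLCO4A1, under 10 TPM in every treated library, passed the filter through the untreated ones. The others were the ETS factor ETV4 (-3.49), CDCA7 (-3.47), the chromatin protein HMGA2 (-3.45), MALL (-3.40), the laminin receptor subunit ITGA6 (-3.27), PHLDA1 (-3.24), ETV5 (-3.00), the fatty acid binding protein FABP5 (-2.97) and the adhesion molecule CEACAM6 (-2.91). ETV5 and CEACAM6 varied most between lines within this group. ETV5 fell by 1.5 in Y634F and by 4.08 in WT, and CEACAM6 fell by 1.37 in PAR and by 2.60 to 3.37 in the other lines. Like SLCO4A1, the genes ETV4, CDCA7, HMGA2, MALL and PHLDA1 were under 10 TPM in every treated library. They too passed the filter through the untreated libraries and were bound to differ. ETV5 was under 10 TPM in every treated library except that of Y634F, so it also passed through the untreated ones.

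**Figure D2:**
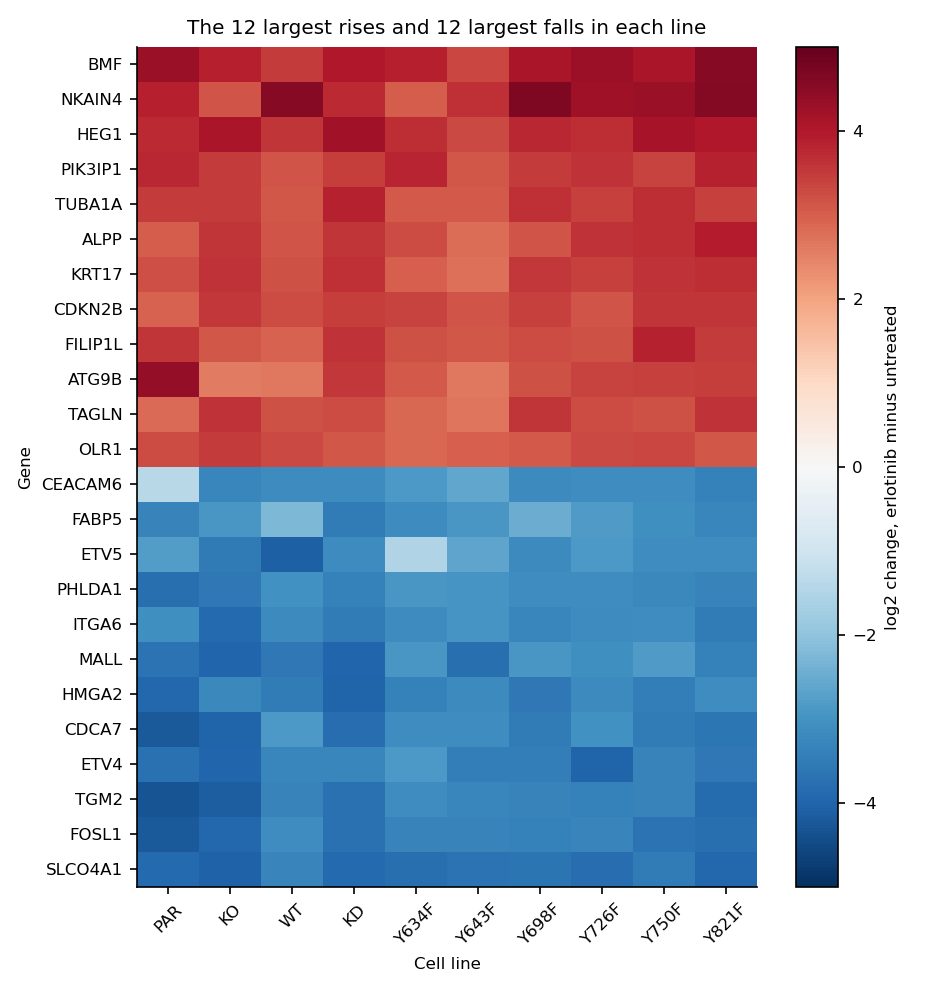
Log2 change with erlotinib in each of the 10 lines for the 12 top rises and the 12 top falls, in which red is higher and blue is lower with erlotinib. Every cell has the sign of its gene, and the palest cells are CEACAM6 in PAR (-1.37) and ETV5 in Y634F (-1.5).

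Most tested outputs of ERK fell. Of 30 listed genes 19 passed the filter, and 16 of these fell, 2 rose and 1 was not called, with a median log2 change of -2.0 beside -0.04 for all genes tested. Among them 12 fell by more than 1. The 19 include 7 genes that passed the filter through the untreated libraries and 1, EPHA4, that passed through the treated ones. Of the 11 listed genes under the filter 10 had a lower mean with E, and the median over all 30 was -1.39. Besides FOSL1, ETV4, ETV5, HMGA2 and PHLDA1, the list held DUSP4, a phosphatase of ERK (51.0 to 9.0 TPM in the mean, -2.38), SPRED2, an inhibitor of RAF activation (-2.08), and the receptor EPHA2 (-2.0). MYC fell from a median of 94.4 TPM to 43.5 TPM (-1.14, standard error 0.06, limma adjusted p = 4e-10), without overlap. CCND1, cyclin D1, fell less, from a range of 273 to 343 TPM untreated to 112 to 227 TPM with E, a log2 change of -0.73 (standard error 0.07, limma adjusted p = 1e-07). Feedback genes were among those under the filter. DUSP6 had a mean of 13.3 TPM untreated and 0.72 TPM with E, SPRY4 had 11.1 and 0.33 TPM, and DUSP5 had 18.7 and 3.31 TPM, with no test since they did not pass. EPHA4 (1.32) and TRIB1 (0.23) were the 2 that rose.

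EGFR itself fell. Its level ran from 171 to 258 TPM untreated and from 103 to 144 TPM with E (log2 change -0.56, standard error 0.08, limma adjusted p = 8.4e-06), and the groups did not overlap. Of 15 tested receptors and adaptors of the ERBB family 7 rose and 7 fell, with a median of -0.06. The receptors ERBB3, the kinase-impaired partner that couples to PI3K (36.5 to 86.9 TPM in the mean, 1.23), and ERBB2 (0.55) rose while EGFR fell. The ubiquitin ligase CBLB (1.90) and the adaptors GAB2 (1.25) and GAB1 (0.58) rose too, and ERRFI1, the inducible EGFR inhibitor MIG6, fell (-0.87), as did the phosphatase PTPN11 (-0.57). Of the 10 ligands 1 passed the filter, and this gene, TGFA, fell (-0.48). AREG and HBEGF were below the filter, at 8.24 and 17.3 TPM untreated and 1.28 and 4.89 TPM with E in the mean.

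Of 10 other receptor tyrosine kinases tested, AXL among them, 7 rose and 2 fell, with a median of 0.38, or 0.013 over all 24 listed genes. IGF1R ran from 18.2 to 46.5 TPM untreated and from 42.9 to 80 TPM with E (1.14, standard error 0.06, limma adjusted p = 2.6e-10). It rose in all 10 lines although the 2 ranges overlapped. EPHB2 (0.55), DDR1 (0.54) and MET (0.52) rose, and TYRO3 (-0.59), a TAM receptor like AXL, and MST1R (-0.49) fell. In PAR the median of the list was -0.25, whereas in the other 9 lines it lay between 0.32 and 0.66. In the test of PAR against these lines given below, 4 of the 10 genes were called, AXL among them. With centred medians or under quantile normalization 0 were called.

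**Figure D3:**
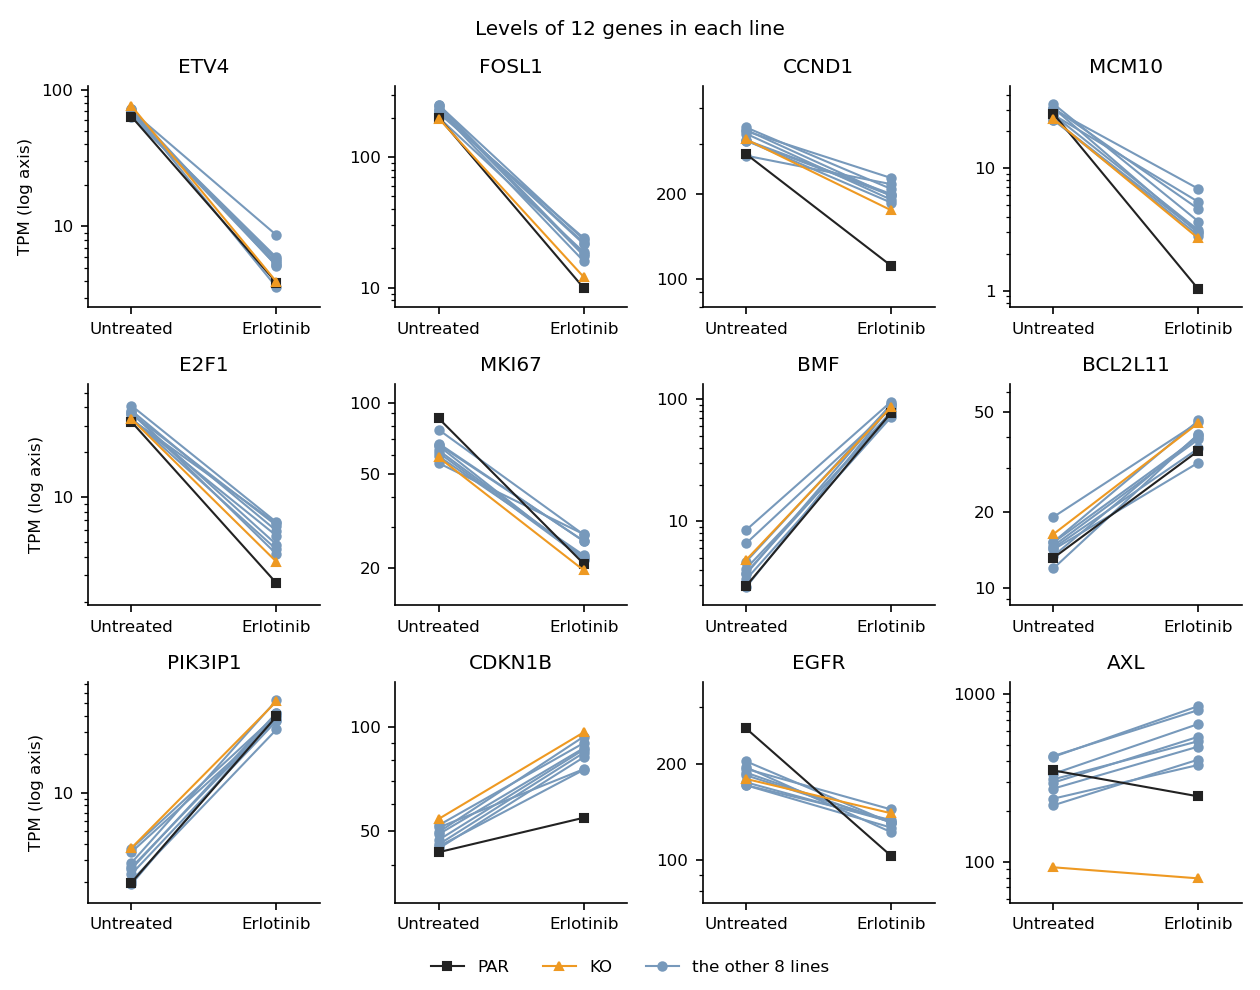
TPM on a log axis of 12 genes in untreated and erlotinib-treated cells, with 1 line joining both libraries of each cell line (PAR in black squares, KO in orange triangles, the other 8 lines in blue). ETV4, FOSL1, CCND1, MCM10, E2F1 and MKI67 fell and BMF, BCL2L11, PIK3IP1 and CDKN1B rose in all lines, and AXL went down in PAR and KO and up in the other 8.

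Cell cycle genes moved together. All 50 tested DNA replication genes fell, 43 of them by more than 1, with a median of -1.67, and for 46 the groups did not overlap. Each of 6 subunits of the MCM helicase fell, from -1.06 for MCM7 to -2.69 for MCM6, and so did its loaders CDC6 (-2.90) and CDT1 (-1.68) and its activators MCM10 (-2.75), CDC45 (-2.54) and GINS2 (-2.55). CDC6 ran from 50.3 to 63.5 TPM untreated and from 3.79 to 10.1 TPM with E. Ribonucleotide reductase RRM2 (-2.57), thymidylate synthase TYMS (-2.52) and the sliding clamp PCNA (-2.14) fell likewise. The smallest falls were those of RPA3 (-0.34) and RFC1 (-0.37), and the treated mean of 17 of the 50 genes was under 10 TPM, so that these passed the filter through the untreated libraries. Homologous recombination and Fanconi genes followed, with 16 of 17 tested genes lower, a median of -1.56, and RAD54L (-2.09) and RAD51AP1 (-2.03) at the low end. FANCC was higher (0.22). Of the 17 tested, 7 passed the filter through the untreated libraries, and the 13 listed genes under it all had a lower mean with E, with a median of -1.44 over all 30.

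All 50 tested mitotic genes fell as well, 41 by more than 1, with a median of -1.29 and with no overlap in any of them. Of the 50, 4 passed the filter through the untreated libraries. MKI67, the proliferation antigen, ran from 55.5 to 85.7 TPM untreated and from 19.6 to 27.9 TPM with E (-1.44, standard error 0.07, limma adjusted p = 1e-10). The range of the changes was narrower than for replication, from -1.93 for PBK and MYBL2 to -0.68 for BUB3 and CDC25C. The master kinases CDK1 (-1.62), AURKB (-1.58) and PLK1 (-1.38) lay between these. Of 21 tested genes of G1 control and the E2F-RB family 15 fell and 5 rose, with a median of -0.60. E2F1 fell most (32.0 to 41.0 TPM untreated, 2.66 to 6.80 TPM with E, -2.61), followed by cyclin E1, CCNE1 (-1.95). Of the 21 tested, 3 passed the filter through the untreated libraries, E2F1 and CCNE1 among them. The 5 that rose were CDKN2B (3.34), CCNG2 (1.87), CDKN1B (0.75), the pocket protein RBL2 (0.71) and TFDP2 (0.44), of which CDKN2B, CDKN1B and RBL2 are inhibitors of the cycle. CDKN1B, p27, ran from 43.5 to 54.3 TPM untreated and from 54.7 to 96.4 TPM with E, so its groups just failed to overlap, whereas CDKN1A, p21, fell (-0.43).

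Replication and mitotic genes are known to be read through different promoter elements, the first through E2F sites and the second through the CHR element of the DREAM and MuvB complexes together with CCAAT boxes. Promoter windows of RefSeq (GRCh38.p14, from 250 bases before to 50 bases after the start nearest to the GENCODE gene start) were found for 7353 of the 9085 genes (80.9%). An E2F site was counted as TTTCCCGC, TTTGGCGC, TTTCGCGC or TTTGCCGC and a CHR as TTTGAA or TTTAAA, on both strands. No motif is part of another, although matches may overlap. E2F sites stood in 20 of 42 replication promoters (47.6%), in 3 of 41 mitotic promoters (7.32%) and in 6.02% of all promoters of tested genes. The CHR stood in 32 of 41 mitotic promoters (78.0%), in 4 of 42 replication promoters (9.52%) and in 14.2% of all. CCAAT, a shorter motif, was in 82.9% of mitotic, 54.8% of replication and 37.0% of all promoters. Over the 507 promoters of genes that fell by more than 1, the shares were 12.8% for E2F, 23.5% for the CHR and 44.4% for CCAAT. A match is a description of the sequence and not evidence that a factor was bound.

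The 100 bases before the start are shown for the 3 replication genes with the largest falls that hold an E2F match there, with each match in capitals. They lie on chromosome 2 from 135876444 to 135876543 (MCM6), chromosome 16 from 85688955 to 85689054 (GINS2) and chromosome 20 from 5126623 to 5126722 (PCNA), all on the minus strand, and their log2 changes were -2.69, -2.55 and -2.14. In MCM6 the capitals hold 2 overlapping matches, TTTGGCGC on the strand of the gene and TTTCGCGC on the other strand. In GINS2 and PCNA the match is on the strand opposite to the gene.
MCM6: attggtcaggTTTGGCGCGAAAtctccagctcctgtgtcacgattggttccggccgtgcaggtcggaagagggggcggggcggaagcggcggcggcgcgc
GINS2: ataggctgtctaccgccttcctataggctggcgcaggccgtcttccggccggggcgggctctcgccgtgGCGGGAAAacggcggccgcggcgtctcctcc
PCNA: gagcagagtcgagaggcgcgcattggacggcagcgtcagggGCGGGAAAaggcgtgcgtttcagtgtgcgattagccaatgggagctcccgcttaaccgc

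The same stretch is shown for the 3 mitotic genes with the largest falls that hold a CHR there, with each CHR in capitals. They lie on chromosome 2 from 112764610 to 112764709 on the minus strand (CKAP2L, -1.46), chromosome 15 from 40160969 to 40161068 on the plus strand (BUB1B, -1.45) and chromosome 10 from 128126424 to 128126523 on the minus strand (MKI67, -1.44). In each a CHR begins within 30 bases of the start, 17 bases before it in CKAP2L, 23 in BUB1B and 29 in MKI67.
CKAP2L: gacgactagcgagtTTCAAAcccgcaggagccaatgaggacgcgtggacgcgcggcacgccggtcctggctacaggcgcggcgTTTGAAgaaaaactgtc
BUB1B: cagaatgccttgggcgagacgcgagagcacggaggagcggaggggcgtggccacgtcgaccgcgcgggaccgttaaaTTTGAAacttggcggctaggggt
MKI67: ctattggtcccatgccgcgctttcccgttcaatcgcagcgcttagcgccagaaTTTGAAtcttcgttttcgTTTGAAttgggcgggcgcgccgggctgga

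Most tested genes that PI3K and AKT hold down rose. Of 26 tested FOXO targets and PI3K-restrained genes 22 rose, 14 of them by more than 1, and 4 fell, with a median of 1.06. PIK3IP1 (3.51) and FBXO32 (2.67), the ubiquitin ligase atrogin-1, led the list. FBXO32 ran from 20.4 to 41.1 TPM untreated and from 160 to 194 TPM with E. CITED2 (2.41), YPEL3 (2.36), GABARAPL1 (2.32), TXNIP (1.75), a brake on glucose uptake, and FOXO4 (1.44) rose by more than 1. The 4 that fell were IRS1 (-0.72), BNIP3 (-0.67), SOD2 (-0.46) and KLF6 (-0.41). Of the 26 tested, 5 passed the filter through the treated libraries, and of 8 listed genes under it 6 had a higher and 2 a lower mean with E, with a median of 0.79 over all 34.

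The BCL2 family changed in both directions. Of 16 tested members 8 rose and 6 fell, with a median of 0.12. The rises were led by BH3-only genes, namely BMF (3.99), BCL2L11, which encodes BIM (12 to 19.2 TPM untreated, 31.6 to 46.4 TPM with E, 1.38), and BBC3, which encodes PUMA (1.36). The survival gene BCL2L1, which encodes BCL-XL, fell from a range of 114 to 138 TPM to 42.6 to 64.1 TPM (-1.07, standard error 0.04, limma adjusted p = 1.2e-11). None of these ranges overlapped, but of the 16 tested members 2, BMF among them, passed the filter through the treated libraries. The BH3-only gene BID (-0.74), the effectors BAK1 (-0.31) and BAX (-0.18) and the survival gene MCL1 (-0.16) fell, the survival gene BCL2L2 rose (0.45), and BCL2 had a mean of 1.91 TPM untreated and was not tested.

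Autophagy and lysosome genes rose, 33 of 42 tested, with 4 lower and a median of 0.42. GABARAPL1 (42.4 to 75.0 TPM untreated, 236 to 367 TPM with E), an ATG8 protein, ATG9B (3.23), the protease CTSH (2.09), WIPI1 (1.98) and the initiating kinase ULK1 (1.82) changed most. The receptors of selective autophagy SQSTM1 (1.07) and NBR1 (0.89) and the lysosomal protease CTSD (0.22) rose as well. CTSL (-0.35) and GLA (-0.35) were lowest. The list of p53 targets had no common direction, with 7 higher, 7 lower and 4 not called. GADD45A (1.65) and TP53I3 (1.60) rose, AEN (-1.84) and MDM2 (-0.62) fell.

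AP-1 subunits moved in both directions. Of 14 tested AP-1 and immediate early genes 6 rose and 7 fell. FOSL1 (-3.58) and MAFF (-1.57) fell most and JUN by -0.46, whereas JUNB (69.8 to 88.5 TPM untreated, 199 to 244 TPM with E, 1.57), JUND (0.68), ATF3 (1.10) and the phosphatase DUSP1 (1.21) rose. In the MYC and MAX network MYC fell (-1.14) while its antagonists MXD4 (1.79) and MXI1 (1.0) rose, with 3 of 9 tested genes higher and 5 lower, or 3 lower without PAR. MAX, its partner, fell least among the 5 (-0.18).

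Targets of YAP and TAZ, coactivators that report cell shape and tension, mostly rose, with 16 of 25 higher, 5 lower and a median of 0.48. IGFBP3 (167 to 408 TPM untreated, 1017 to 2028 TPM with E, 2.50), TGFB2 (2.25), CCN1 (1.14) and AJUBA (1.14) rose, NT5E (-2.34), FJX1 (-1.72) and ANKRD1 (-0.54) fell, and CCN2 rose by 0.14. Epithelial junction genes rose too, 21 of 28, with a median of 0.37. The tight junction genes TJP3 (1.4), CLDN3 (1.02) and CLDN4 (0.97), plakoglobin, JUP (1.01), and E-cadherin, CDH1 (0.67), were higher, and PKP3 (-0.49) and EPCAM (-0.44) were lower.

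Mesenchymal genes did not move as one. Of 12 tested genes 7 rose and 4 fell, with a median of 0.33, or 0.069 over all 23 listed genes. SOX4 (29.4 to 37.7 TPM untreated, 166 to 193 TPM with E, 2.49), MMP14 (1.94), fibronectin, FN1 (1.39), and SNAI2 (1.05) rose, FOXQ1 (-2.66), S100A4 (-0.79) and vimentin, VIM (-0.58), fell, and ZEB1 and ZEB2 were under the filter. Integrin and focal adhesion genes changed in both directions, 17 higher and 13 lower of 34. ITGA6 (235 to 325 TPM untreated, 16.9 to 38.3 TPM with E, -3.27), ITGA2 (-1.68) and ITGA3 (-1.29), the laminin and collagen receptor subunits, fell, as did the kindlin FERMT1 (-1.85) and the laminin chains LAMA3 (-0.80) and LAMB3 (-0.50). ITGAV (0.96) and ITGB6 (0.88), which pair into a receptor that activates TGF-β, rose together with the scaffolds NEDD9 (2.23) and TNS3 (1.39). In the plasminogen activator system the protease PLAU (-1.27), PLAT (-0.88) and the receptor PLAUR (-0.51) fell, and 6 of 7 tested genes were lower.

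Of 17 tested interferon-stimulated genes 12 rose, OAS3 fell (-1.02) and 4 were not called, with a median of 0.54. Of the 17, 5 passed the filter through the treated libraries. GBP2 (0.37 to 5.08 TPM untreated, 23.0 to 34.6 TPM with E, 3.08), GBP1 (1.58) and the factors IRF9 (1.3), STAT2 (1.22) and IRF1 (1.05) were among them. A further 24 listed genes, such as IFIT1, were under the filter, 18 of them with a higher and 6 with a lower mean with E, and the median over all 41 was 0.48. Of 16 tested antigen presentation genes 10 rose, including HLA-E (1.31), B2M (832 to 1403 TPM in the mean, 0.76) and CD74 (1.08), and 4 fell. The checkpoint ligand CD274 (PD-L1) fell most, from a range of 13.6 to 25.2 TPM to 1.59 to 9.41 TPM (-1.73, standard error 0.14, limma adjusted p = 2.5e-08). CD274 was under 10 TPM in every treated library and so passed the filter through the untreated ones. HLA genes are polymorphic and resemble each other, so their TPM values are uncertain. Of 9 tested cytokine genes TNFSF10 (2.13), which encodes TRAIL, and IL6 (1.75) rose most and VEGFA (-1.48) and LIF (-0.67) fell most. Among the 9, 2 passed the filter through the treated libraries. The 15 listed cytokine genes under the filter held 11 with a lower and 3 with a higher mean with E. The median over all 24 was -0.10.

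Most tested genes of RNA and protein synthesis fell. Ribosome biogenesis had 45 of 47 tested genes lower and none higher, with a median of -0.84, led by LYAR (-1.99) and the snoRNP protein NOP56 (231 to 303 TPM untreated, 68.4 to 106 TPM with E, -1.65). The other 2, NOB1 and UBTF, were not called, at -0.06 and 0.01. Of 19 tested aminoacyl-tRNA synthetases 18 fell, most of all FARSB (-1.61), and QARS1 rose (0.49). Of 27 tested chaperones 23 fell, with HSPD1 (-1.18) and HSP90AA1 (-1.09) lowest and a median of -0.64.

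Genes of amino acid supply fell in 15 of 25 cases, with a median of -0.55, or -0.25 over all 33 listed genes. The serine pathway genes PSAT1 (48.4 to 70.6 TPM untreated, 11 to 19.6 TPM with E, -1.90) and PHGDH (-1.35) and the folate enzyme MTHFD2 (-1.68) fell, whereas the amino acid exchanger SLC7A5 rose (1.03) with its heavy chain SLC3A2 (0.72). ATF4 was not called, at -0.08. Glycolysis showed 16 lower and 7 higher of 27. ENO2 (-1.46), ENO1 (1278 to 1871 TPM untreated, 469 to 825 TPM with E, -1.34), LDHA (-1.17) and GPI (-1.02) fell, while the pentose phosphate enzymes TKT (0.63), TALDO1 (0.46) and PGD (0.26) rose, as did PDK2 (0.69). In lipid synthesis FASN (-1.0) and ELOVL6 (-0.95) fell and TM7SF2 (1.71) and SREBF2 (0.65) rose, with 18 lower and 12 higher of 32.

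Of 66 tested respiratory chain genes of the nucleus 42 fell and 13 rose, with a median of -0.18, from ATP5MC1 at -1.01 to NDUFB4 at 0.33. The 13 mRNAs of the mitochondrial genome lay between -0.12 (MT-ND2) and 0.25 (MT-ND6), with 6 higher and 2 lower, or 5 higher and 4 lower without PAR, and their median of 0.05 turned to -0.16 under quantile normalization. Of 25 NRF2 targets 12 rose and 7 fell. The iron store FTH1 was the highest of them, from a range of 7657 to 10413 TPM to 18832 to 22856 TPM (1.19), and FTL and AKR1C3 followed, both at 0.70. SLC48A1 (-0.94) and ABCC2 (-0.78) fell most. Among airway and alveolar genes 9 of 32 passed the filter, 5 of them higher and 4 lower, with a median of 0.025 over all 32. Of the 9 tested, 3 passed the filter through the treated libraries. ELF3 (16.4 to 39.4 TPM untreated, 157 to 241 TPM with E, 2.99) and the mucins MUC4 (2.79) and MUC1 (1.79) rose, and CEACAM6 and LPCAT1 fell. NKX2-1 and the surfactant genes, which mark alveolar type II cells, had means under 0.5 TPM in both groups.

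**Figure D4:**
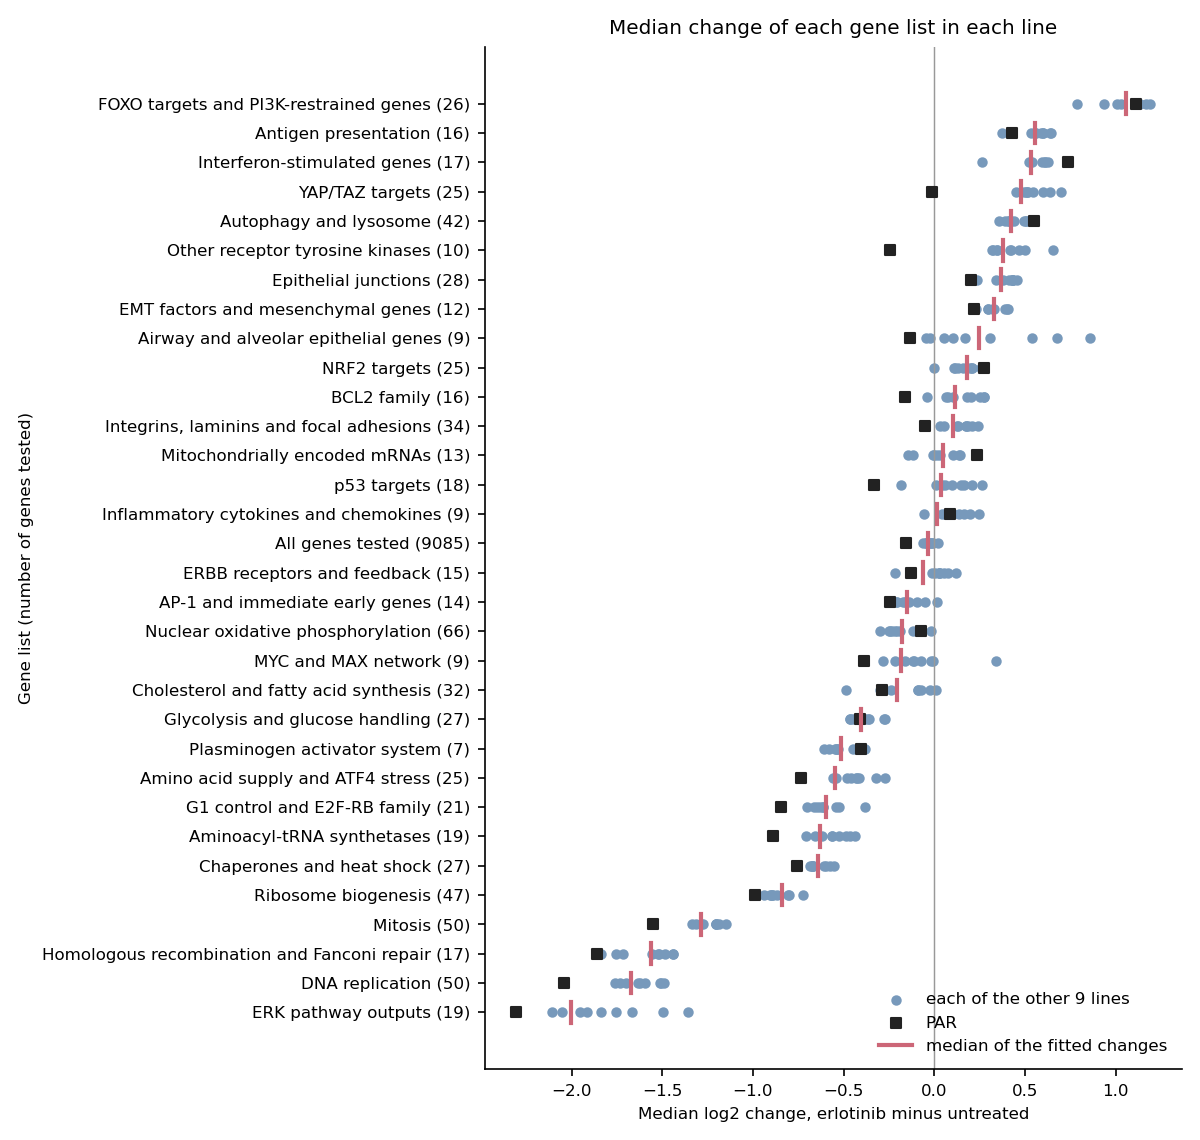
Median log2 change of each gene list in PAR (black squares) and in each of the other 9 lines (blue points), with the median of the changes fitted over 10 lines as a red bar and the number of tested genes in parentheses. DNA replication, homologous recombination and Fanconi repair, mitosis and ERK outputs lie at the low end in every line and FOXO targets at the high end, and PAR stands apart for YAP/TAZ targets (-0.01) and for other receptor tyrosine kinases (-0.25).

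Whether the parental line responded like the 9 knockout-derived lines was tested on the within-line changes. The change in PAR differed from the mean of the other 9 lines in 535 genes (5.89% of those tested), with 475 below the others (5.23%) and 60 above, and 2111 genes had an unadjusted p under 0.05. PAR has 1 pair of libraries, so the test assumes that it varies like the other lines, and a difference of the pair from its line cannot be told apart from a difference of the line. The median gene in PAR lay 0.12 below the others. The direction of the calls moved with this shift, from 60 above and 475 below to 292 above and 158 below once library medians were set equal. Quantile normalization left 90 above and 154 below, and leaving mitochondrial genes out left 73 above and 345 below. A total of 171 genes kept their call and sign under these 3 other scalings, 47 above and 124 below. The PAR pair also stood out in library composition. Mitochondrial transcripts rose from 14.4% to 17.4% of the TPM in PAR, and the number of genes at 10 TPM or more fell from 9108 to 8643, whereas its median over the 10 lines was 8912 untreated and 8895 with E. Apart from these scalings, the part of library composition in the difference was not tested.

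Of the 719 tested list members 76 were called different in PAR, 63 of them below the other lines, and 24 kept the call under all 4 scalings. EGFR was among the 24. It went from 258 to 103 TPM in PAR (-1.31), while in the other 9 lines it went from between 171 and 203 TPM to between 122 and 144 TPM, a mean change of -0.47, and the difference was -0.84 (standard error 0.12, limma adjusted p = 0.002). PAR was highest before and lowest after the drug. YAP/TAZ targets held 11 of 25 genes below the other lines, beside 5.23% of all tested genes, or 5 of 25 with centred medians, beside 1.74% of all, and 5 kept the call under all 4 scalings, namely CCN1, AMOTL2, AJUBA, LIMS1 and THBS1. AXL was among the 11, and in the 8 transduced lines its level includes transgene reads that match the reference. CCN1, a matricellular protein, went from 102 to 117 TPM in PAR and from a median of 95.4 to 219 TPM in the other lines, a difference of -1.05. AMOTL2 differed by -0.79 and THBS1 by -0.84. CCN1, AMOTL2, AJUBA, LIMS1, THBS1, CDT1, LIG1 and ACTN1 were picked for mention after their values were seen.

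DNA replication had 11 of 50 genes that fell further in PAR, beside 5.23% of all tested genes, or 2 of 50 with centred medians, beside 1.74% of all. Of these CDT1 (-2.64 in PAR, -1.57 in the others) and LIG1 kept the call under all 4 scalings. MCM10 went from 27.8 to 1.03 TPM in PAR and from a median of 27.3 to 3.12 TPM in the others. CDKN1B rose less in PAR, by 0.32 beside 0.79, and CCND1 fell further, by 1.3 beside 0.66, but neither kept its call with centred medians or under quantile normalization, and without mitochondrial genes CCND1 kept it (limma adjusted p = 0.0393) and CDKN1B did not (0.0629). Actinin ACTN1 rose by 0.13 in PAR and by 0.69 in the others. The changes of the redox gene AKR1C3 (1.19 in PAR, 0.65 in the others), GBP2 (4.21 and 2.95) and CEACAM6 (-1.37 and -3.09) lay above those of the other lines. For GBP2 the untreated level was 0.37 TPM in PAR and 1.52 to 5.08 TPM in the others. With E it was 24.4 TPM in PAR, within the range of the others, 23.0 to 34.6 TPM.

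The largest differences over all genes lay mostly outside the lists. Below the others were CCDC183 (-1.91 in PAR, 0.78 in the others), MEGF6 (-0.43 and 1.5), the chromatin remodeller HELLS (-3.71 and -1.89), NOTCH2NLA (-1.52 and 0.19) and ANKRD20A5P (-1.86 and -0.19). Above them were POLR1H (1.81 and -0.19), CEACAM6, CNFN (1.82 and 0.32), SYTL3 (1.34 and -0.0031) and GBP2. NOTCH2NLA and ANKRD20A5P belong to families of near-identical copies, and their values are uncertain. Within this group MEGF6 was lower in PAR, whereas it rose by 1.24 to 1.79 in the other 9 lines.

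**Figure D5:**
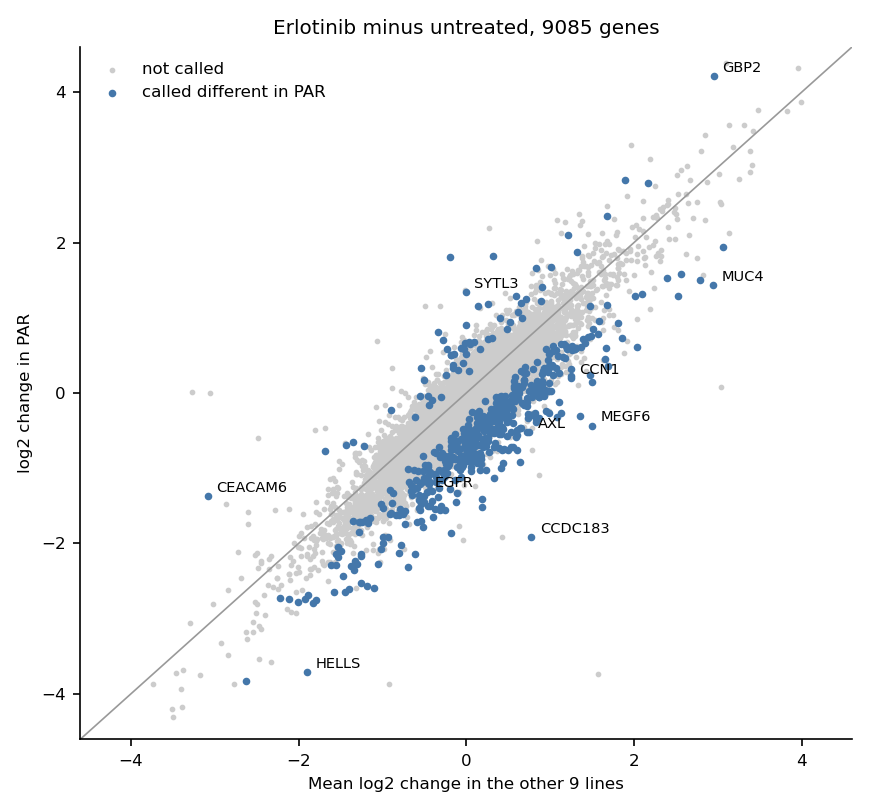
Log2 change with erlotinib in PAR against the mean log2 change in the other 9 lines for the 9085 tested genes, with the 535 genes called different in PAR in blue and the diagonal in grey. Most blue points lie below the diagonal, 475 of 535, and EGFR, CCN1 and MEGF6 are among them, while CEACAM6, GBP2 and SYTL3 lie above it.

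The question of whether AXL kinase activity alters the response to the drug alone was addressed by comparing KO and KD with the 7 lines that carry kinase-competent AXL on the knockout background. Limma called 1 gene (0.0110% of those tested), and 401 had an unadjusted p under 0.05 (4.41% of the tested genes). The called gene was RNA5SP187, a 5S ribosomal pseudogene of a multicopy family whose value is uncertain, which changed by 1.41 in the mean of KO and KD and by 0.44 in that of the others (difference 0.97, standard error 0.12, limma adjusted p = 0.0326). The next smallest adjusted p was 0.998. The median half-width of the 95% interval was 0.29, beside a median size of 0.47 for a called change with E. The 95% interval of the difference lay within 1 on either side of 0 for 97.7% of genes, and within 0.5 for 73.2%. For BMF the interval ran from -0.56 to 0.56, for BCL2L11 from -0.20 to 0.44, for CCND1 from -0.32 to 0.15, for EGFR from -0.15 to 0.25 and for MKI67 from -0.48 to 0.05. AXL itself changed by -0.22 in KO and by 0.67 in KD, a mean of 0.23, and by 0.90 in the mean of the others, a difference of -0.68 with an interval from -1.03 to -0.33 and a limma adjusted p of 0.998. FOSL1 fell by 3.82 in the mean of KO and KD and by 3.42 in that of the others, with an interval from -0.72 to -0.07 and an adjusted p of 0.998 in limma. These intervals are not adjusted for the number of genes, and 2 lines against 7 leave smaller differences undetected. In the study only a part of the cells of a transduced line expressed AXL, and AXL activation varied between the 7 lines. KO also differs from them in not being transduced. The comparison is therefore one of mixed populations and does not isolate kinase activity.

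The lines were close in the slope of the response, but PAR differed in the number of large changes. In PAR 447 tested genes rose and 947 fell by more than 1. In the other 9 lines 530 to 669 rose and 538 to 766 fell by more than 1. These counts were not rescaled, and the median change was -0.16 in PAR and between -0.06 and 0.02 in the others. Whether the counts differ with centred medians was not tested. The slope of a line's changes on the mean of the other 9 ran from 0.91 in Y643F to 1.07 in KD, and Pearson's r across genes between 2 lines ran from 0.83 (PAR and Y643F) to 0.94 (KD and Y821F), where genes are not independent replicates. PAR had the lowest mean r, 0.85. The share of TPM in the 100 highest genes rose in 10 of 10 lines, by 2.60 ± 1.35 percentage points (SD, n = 10; exact permutation test by sign flips, two-sided, p = 0.00195, the smallest that 10 lines allow, 0.00586 adjusted over 3 measures), with the largest rise, 6.03, in PAR. The mitochondrial share (p = 0.109) and the number of genes at 10 TPM (p = 0.875) did not pass the same exact test. The genes whose change varied most between lines were HIST2H2AA3, RPL21P16, RPL22P1, TRBJ2-7 and H3P6, a histone gene with near-identical copies, 3 processed pseudogenes and a short joining segment. Several of their libraries were listed at 0 TPM, such as 0 to 320 TPM for RPL21P16 untreated, and their values are uncertain.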

How the data were processed

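Poly(A) RNA of 29 libraries was sequenced, and the authors deposited 1 table of TPM per transcript. The submitters' processing notes name kallisto and GRCh38, and no version is given in the sources used here. TPM keeps no read depth, so the depth behind a value is unknown, no counting interval can be given, and the number of lines limits the precision. Per the deposited table TPM values are relative to all transcripts of a library, so a rise of abundant genes lowers the others.

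TPM values were summed per gene with GENCODE 29, to which 169797 of 188753 transcripts matched (97.0 to 97.4% of the TPM), giving 35579 genes. Genes with a mean of 10 TPM or more over the 29 libraries were kept. Values were tested as log2(TPM + 1) with limma 3.58.1 in R 4.3.3 (lmFit, eBayes with trend, the line as a block, 20 libraries), and p-values were adjusted by Benjamini-Hochberg over all genes tested. The pairing comes from the labels, since both libraries of a pair are the same line. Differences of response (PAR against 9 lines, KO and KD against 7) were tested with limma on the within-line changes, and library measures with exact sign-flip permutation tests. PCA and figures were made in Python 3.11.15 (matplotlib 3.10.9, numpy 2.4.6, scipy 1.17.1, pandas 2.3.3). The code was tested on simulated data.

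The comparison, the gene lists and the named genes were chosen with earlier results of these data known. Genes named by rule were the 12 largest rises and falls that went the same way in 10 lines, the 2 highest and 2 lowest tested members of each list, AXL, EGFR, DUSP6, CCND1, BCL2L11, MKI67 and CDKN1B, the 5 largest and 5 smallest called differences of PAR and of KO and KD, and the 5 genes with the largest SD between lines. A few members are not reported here. Other list members were named as examples after their values were seen. Alternatives were other filters, pseudocounts and scalings, no block, array quality weights, a test against a change of 0.5, and leaving out each line.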

Additional observations from a re-analysis of the deposited data

Results flagged for a closer look

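For 193 measures with 10 line changes each, the line farthest from the others was examined with Dixon's ratio, and 27 measures had a line far out, 22 of them PAR. The criterion lets through about 1 in 20 measures by chance. The measures hold 16 genes named for a difference between lines, 10 of them for the largest and smallest differences of PAR, so the count cannot be set against that rate. Among the 177 other measures 17 had a line far out, 13 of them PAR, and these measures share the same 10 pairs of libraries. PAR lay below the range of the other lines for EGFR (-1.31), CCND1 (-1.3), BCL2L1 (-1.4), MAFF (-2.64), SLC7A5 (0.50), the mucin MUC4 (1.43), CCDC183 (-1.91), MEGF6 (-0.43), HELLS (-3.71), NOTCH2NLA (-1.52) and ANKRD20A5P (-1.86), given as the log2 change in PAR. It lay above the range for CEACAM6 (-1.37), GBP2 (4.21), AKR1C3 (1.19), SYTL3 (1.34) and POLR1H (1.81). List medians in PAR were outside for other receptor tyrosine kinases (-0.25, the others 0.32 to 0.66), DNA replication (-2.04, the others -1.76 to -1.49), mitosis (-1.55, the others -1.34 to -1.15) and YAP/TAZ targets (-0.011, the others 0.45 to 0.70). These medians were not rescaled, and the median gene in PAR lay 0.12 below the others. With centred medians 0 of 50 mitotic, 2 of 50 replication, 0 of 10 receptor and 5 of 25 YAP/TAZ genes were called below the others. The change in the share of the 100 highest genes was 6.03 percentage points in PAR, and the change in the number of genes at 10 TPM was -465.

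Other lines stood apart in 5 measures. SERPINB5 changed by -0.64 in KO, OAS3 by -0.59 in Y750F and the pseudogene RPL21P16 by -8.33 in WT. In WT the median of the MYC and MAX network was 0.34 and that of interferon-stimulated genes 0.27, where the other lines lay between -0.39 and -0.00 and between 0.52 and 0.74.

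The change in PAR differed from the mean of the other 9 lines in 535 genes, and 22 of the 158 genes named by rule were among them, 10 of these by the rule itself. Of the 142 genes not named for a difference between lines 12 were among them (8.45%, beside 5.89% of all tested genes). For those given here the difference, PAR minus the others, was 1.71 for CEACAM6, -0.63 for PTPN11, -1.27 for AXL, -1.20 for MCM10, -1.20 for MAFF, -0.72 for MMP14, 1.26 for GBP2, -0.60 for SLC7A5, 0.55 for AKR1C3, -1.51 for MUC4, -0.84 for EGFR, -0.64 for CCND1 and -0.47 for CDKN1B. It was -2.69 for CCDC183, -1.93 for MEGF6, -1.81 for HELLS, -1.71 for NOTCH2NLA, -1.67 for ANKRD20A5P, 1.34 for SYTL3, 1.51 for CNFN and 2.0 for POLR1H. The AXL level of the 8 transduced lines includes transgene reads that match the reference. The KO and KD change minus that of the 7 other transduced lines was 0.97 for RNA5SP187. PAR differs from the other 9 lines in that it does not descend from the knockout, and its pair also in library composition, and these cannot be told apart. KO, like PAR, was not transduced. Its change in EGFR was -0.35, and its changes had an r across genes of 0.88 to 0.92 with the 8 transduced lines and of 0.86 with PAR. KO is 1 line with 1 pair of libraries, and the part of transduction in the PAR difference was not tested.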

How the results depend on the processing

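Of the alternative values of the main counts and measures, 162 stayed within 1.5 times or on the same side of the threshold, and the others follow. With a mean of at least 1 TPM 5008 genes were higher, and without a filter 10812 were called, 5533 of them higher. Against a change of 0.5, 2415 were called, 1073 higher and 1342 lower. Calls ran from 6999 to 7256 with 1 line left out. Limma without the replicate block called 6811 genes (3135 higher, 3676 lower), and pairing by line changed no count by over 1.5 times. For PAR, no filter gave 1254 genes (269 above, 985 below), centred medians 292 above and 158 below, and quantile normalization 244 (154 below), and leaving out a line gave 429 to 680. For KO and KD, limma called 0 genes, and 0 higher, with a mean of at least 1 TPM or with PAR included, and 18 without a filter (6 higher, 12 lower). Leaving out KO, WT, Y634F, Y726F, Y750F or Y821F gave 0, and leaving out KD gave 1, which was lower, so counts ran from 0 to 1. The mean change of the mitochondrial share ran from 0.354 points without PAR to 0.82 points without WT (exact permutation p = 0.0234 without WT), and the genes at 10 TPM changed by -12 without Y643F and by -1.44 without Y750F, within a range of -12 to 65.6. PC1 held 52.9% with unit variance. Signs turned for genes near 0 or with 1 line apart. UBTF ran from -0.0073 to 0.049, NOTCH2NLA from -0.083 to 0.19, SYTL3 from -0.0031 to 0.17 and POLR1H from -0.19 to 0.13 with a line left out. POLR1H was -0.054 and NOB1 0.020 under quantile normalization, POLR1H was -0.17 with array weights, and MT-CO1 was -0.34 under quantile normalization. The cause was not tested.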

Other observations

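Gene families outside the lists were described after their values were seen, so their counts are descriptions, and 36.4% of all tested genes were higher and 42.6% lower. All 21 tested nuclear pore genes fell, with a median of -0.80 and NUP35 lowest (-1.40), and all 8 subunits of the chaperonin that folds actin and tubulin fell (median -0.77). Of 15 tubulin and gamma-tubulin complex genes 11 fell, TUBA1B most (-1.56), and 3 rose, TUBA1A (3.43) and TUBB3 (0.88) most, although reads of tubulin paralogs may be divided in error. Mitochondrial ribosomal proteins fell in 67 of 75 cases (median -0.47), whereas cytosolic ribosomal proteins had a median of -0.14. Of 36 proteasome subunits 33 fell and PSMB10, an immunoproteasome subunit, rose (0.81). Zinc finger genes of the ZNF series went the other way, with 109 of 177 higher and 30 lower (median 0.29), as did collagens, with 9 of 12 higher.

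The largest shift of TPM was in a few abundant transcripts. FTH1, the ferritin heavy chain, went from 9064 to 20661 TPM in the mean, ACTG1 from 6500 to 11330 TPM, FTL from 5702 to 9298 TPM and KRT7 from 3332 to 6139 TPM, each in 10 of 10 lines. GAPDH fell from 5496 to 3669 TPM, TUBA1B from 2088 to 713 TPM and the hyaluronan receptor CD44 from 909 to 215 TPM, each lower in 10 of 10 lines.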
